A study of Sus scrofa with 6 samples.

Results

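The cytosolic ribosomal protein genes were examined in RNA-seq libraries of longissimus dorsi, a skeletal muscle of the back, from 3 UCP1 KI pigs and 3 WT pigs (Sus scrofa), all 6 months old, with 1 library per pig. The genes were chosen by symbol, as those named RPL or RPS with a number, RPLP0 to RPLP2 and RPSA, without the RPS6K kinases and with at least 10 counts in at least 3 libraries. By this rule 50 of the 30476 genes in the count table were members. Of these, 24 encode proteins of the small subunit, 21 encode proteins of the large subunit and 5 are paralogs of such genes (RPL3L, RPL7L1, RPL26L1, RPL36AL and RPS27L). RPL10L, a testis paralog of RPL10, met the naming rule but had 0 counts in all 6 pigs, which allows up to 3 counts per pig. A further 33 of 79 genes known to encode cytosolic ribosomal proteins, among them RPS6, RPS19, RPL8 and RPL22, had no row under their symbol and were not analysed here. The UCP1 KI pigs carry a CRISPR/Cas9 knock-in of UCP1, the uncoupling protein of brown fat mitochondria, that is active in adipocytes, so the muscle fibres measured here are not the cells in which the insert works. No gene in the table carried the symbol UCP1, so the genotype was not checked in these counts. The sex and litter of the pigs are not given in the sources used here.

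Ribosomal proteins clothe and stabilise the ribosomal RNA. Those of the small subunit help to hold and decode the mRNA, those of the large subunit surround the site where peptide bonds form, and the acidic stalk proteins RPLP0, RPLP1 and RPLP2 recruit the elongation factors. Because each ribosome needs its proteins in a fixed ratio, their genes are transcribed at coordinated levels, and their mRNAs begin with a terminal oligopyrimidine (TOP) motif through which mTOR and LARP1 control translation. In skeletal muscle the number of ribosomes is tied to growth and protein turnover, and RPL3L is a striated-muscle form of RPL3 that takes its place in some ribosomes of the fibre.

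The comparison asked whether a knock-in that acts in fat went along with a different level of ribosomal protein mRNA in muscle. The libraries held between 30220951 and 35066624 counts, and the lowest count of any member in any pig was 414. The 20 most abundant genes took 56.5% of the counts in WT pig 2 and between 39.0 and 44.8% in the other 5 pigs. TMM scaling, which sets the libraries to a common level over most genes, gave WT pig 2 the lowest factor (0.781) and UCP1 KI pig 2 the highest (1.18). Levels below are CPM, counts relative to the scaled library total, and fold changes are log2 of UCP1 KI over WT from edgeR. CPM is not corrected for transcript length, so the values compare pigs and not genes.

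Of all counts, UCP1 KI pigs had 2.39, 2.92 and 2.47% on ribosomal protein genes, and WT pigs 2.26, 2.54 and 2.69%. The group means were 2.59 ± 0.283% (SD, n = 3) and 2.50 ± 0.214% (SD, n = 3), and their difference of 0.0942 percentage points was smaller than the SD of either group and turned to -0.068 without UCP1 KI pig 2 and to -0.023 without WT pig 1. On the TMM scale the summed level was 25248, 24719 and 21120 CPM in UCP1 KI pigs against 21255, 32583 and 29281 CPM in WT pigs. WT pig 1 lay at the level of UCP1 KI pig 3, the lowest pig, whereas WT pigs 2 and 3 lay above all 3 UCP1 KI pigs. Outside the 20 most abundant genes the share was 4.27, 4.81 and 4.05% in UCP1 KI and 4.08, 5.85 and 4.86% in WT, so the side on which the group mean was higher turned with the denominator, and the groups overlapped on each of the 3 scales. In whole muscle, a lower level per fibre cannot be told apart from a smaller share of cells rich in these mRNAs.

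**Figure D1:**
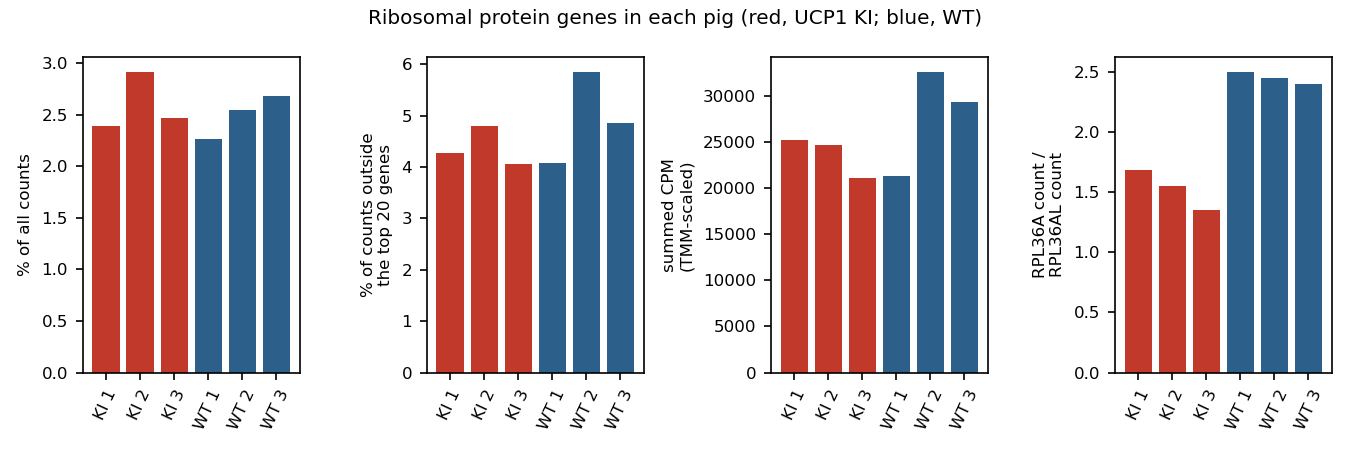
Ribosomal protein genes as a family in each pig, as percent of all counts, percent of the counts outside the 20 most abundant genes, summed TMM-scaled CPM, and the ratio of RPL36A to RPL36AL counts, with 1 bar per pig (red, UCP1 KI; blue, WT). The groups overlap in the first 3 panels, where WT pig 2 reaches 5.85% and 32583 CPM, and not in the ratio, which is 1.35 to 1.68 in UCP1 KI and 2.40 to 2.50 in WT.

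The counts of both subunits could also be set against each other within a pig, where library scaling cancels. The summed level of small subunit genes over that of large subunit genes was 0.894, 0.897 and 0.882 in UCP1 KI and 0.911, 0.994 and 0.901 in WT. The groups did not overlap, but the difference of -0.0446 was smaller than the WT SD of 0.0509, and WT pig 2 lay apart from the other 5 pigs. This ratio was chosen after the values had been seen.

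Of the 50 members, 0 were called higher in UCP1 KI and 1, RPL36A, was called lower, where a call needed p under 0.05 before adjustment in edgeR and a log2 fold change beyond 0.5 on either side. Over all 13402 genes tested, 3.84% were called higher and 4.34% lower, and the 2% of members called lower was below that background. No member had an adjusted p under 0.05, the smallest being 0.583 in edgeR, and the same held for all genes tested, of which 1100 had an unadjusted p under 0.05. DESeq2 called the same numbers of members at these limits, 0 higher and 1 lower, with an adjusted p under 0.05 in 0 members and in 127 of all genes tested. In 4 members, RPL36A, RPL37, RPL14 and RPL23, every UCP1 KI pig lay below every WT pig, which is 8% of the members against 7.69% of all genes. In 0 members did every UCP1 KI pig lie above every WT pig, against 7.59% of all genes.

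The estimates lay mostly on the lower side. The log2 fold change was below 0 in 45 members and above 0 in 5 (RPL10, RPL11, RPL4, RPL26L1 and RPL7L1), and its median was -0.18 against -0.02 over all genes tested. By class the median was -0.25 for the small subunit, -0.15 for the large subunit and -0.13 for the paralogs. The 95% interval held 0 in 49 of the 50 members, with a median half-width of 0.66 and a range of 0.52 to 0.86. An estimate smaller than the half-width of its own gene could not be told from 0 with these pigs. The members move together across pigs and are not 50 independent measurements. With libraries scaled to their total count only, the median over all genes moved to 0.24 and that of the members to 0.10, on the other side of 0 although still below all genes.

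**Figure D2:**
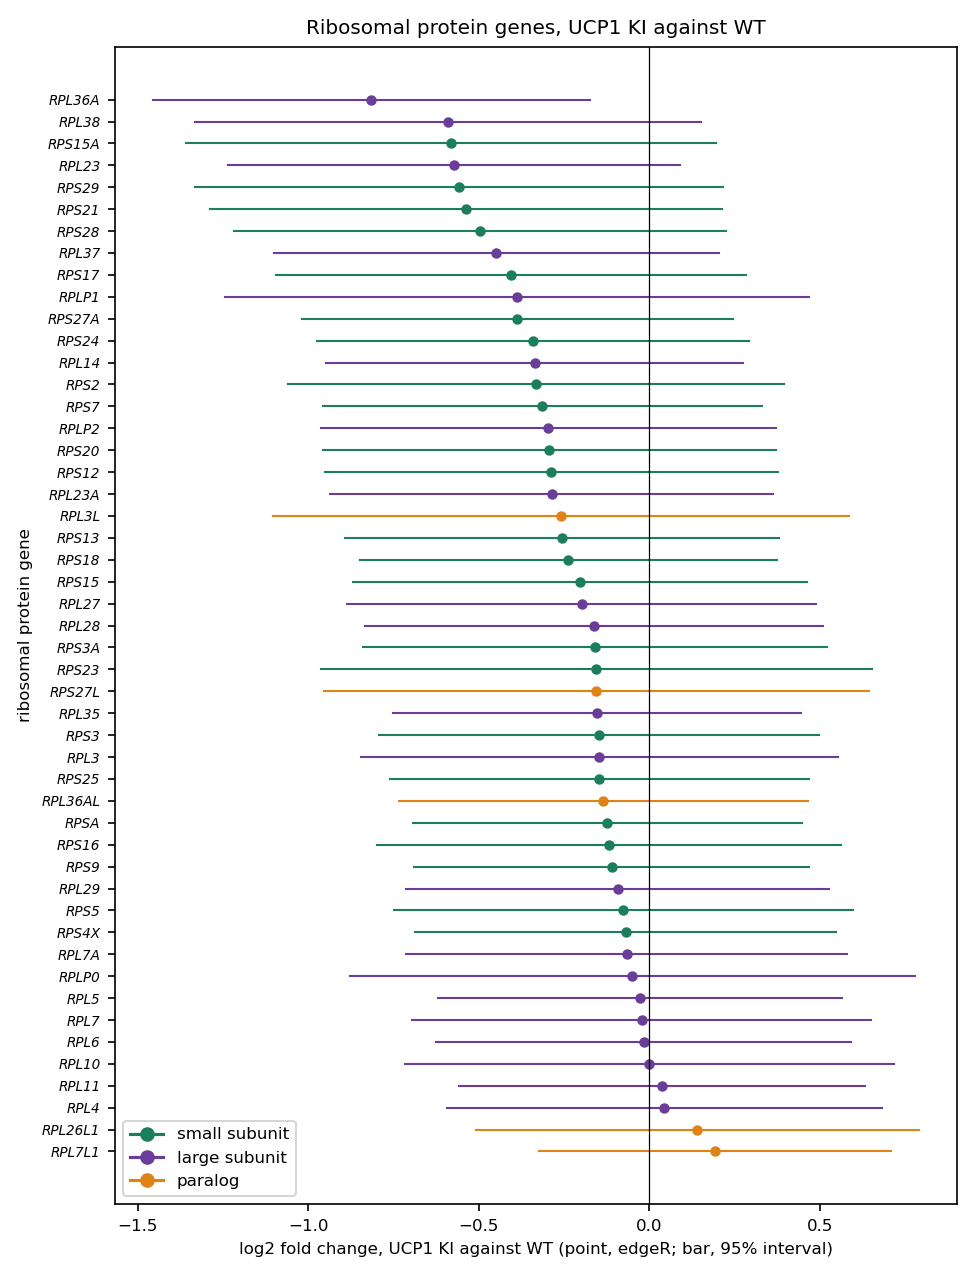
Log2 fold change of UCP1 KI against WT for 49 of the 50 ribosomal protein genes, ordered by value (point, edgeR estimate; bar, 95% interval; colour, class). The interval of RPL36A, from -1.45 to -0.17, is the only interval that leaves out 0, and 44 of the points lie below 0.

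RPL36A encodes a large subunit protein that lies near the exit site for spent tRNA (ENSSSCG00000039046, X:83018305-83022285 in Sscrofa11.1). Its level was 103, 104 and 81.1 CPM in UCP1 KI and 132, 221 and 154 CPM in WT. All 3 UCP1 KI pigs were below the lowest WT pig. The log2 fold change was -0.81 (SE 0.275, edgeR p = 0.0191, adjusted p = 0.583), and the two-sided exact permutation p was 0.1, the smallest that 3 pigs against 3 allow. Without WT pig 2, whose value was the highest, the log2 fold change was -0.57 and the gene was no longer called. It was also not called without UCP1 KI pig 3, at -0.71, or with libraries scaled to total count only, at -0.53.

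RPL36AL is an autosomal gene for a nearly identical protein (1:179476638-179477820), so reads may have been split between the pair in a way that the sources used here do not describe. Its level was 61.3, 66.9 and 60.0 CPM in UCP1 KI and 52.7, 89.9 and 64.0 CPM in WT, with the WT pigs on both sides of the UCP1 KI pigs. The log2 fold change was -0.13 (SE 0.258). The ratio of RPL36A to RPL36AL counts, which no library scaling can move, was 1.68, 1.55 and 1.35 in UCP1 KI and 2.50, 2.45 and 2.40 in WT. The means were 1.53 ± 0.166 (SD, n = 3) and 2.45 ± 0.0492 (SD, n = 3), with a two-sided exact permutation p of 0.1. The pair was listed among the paralogs to be described, but this ratio was singled out after its values had been seen.

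**Figure D3:**
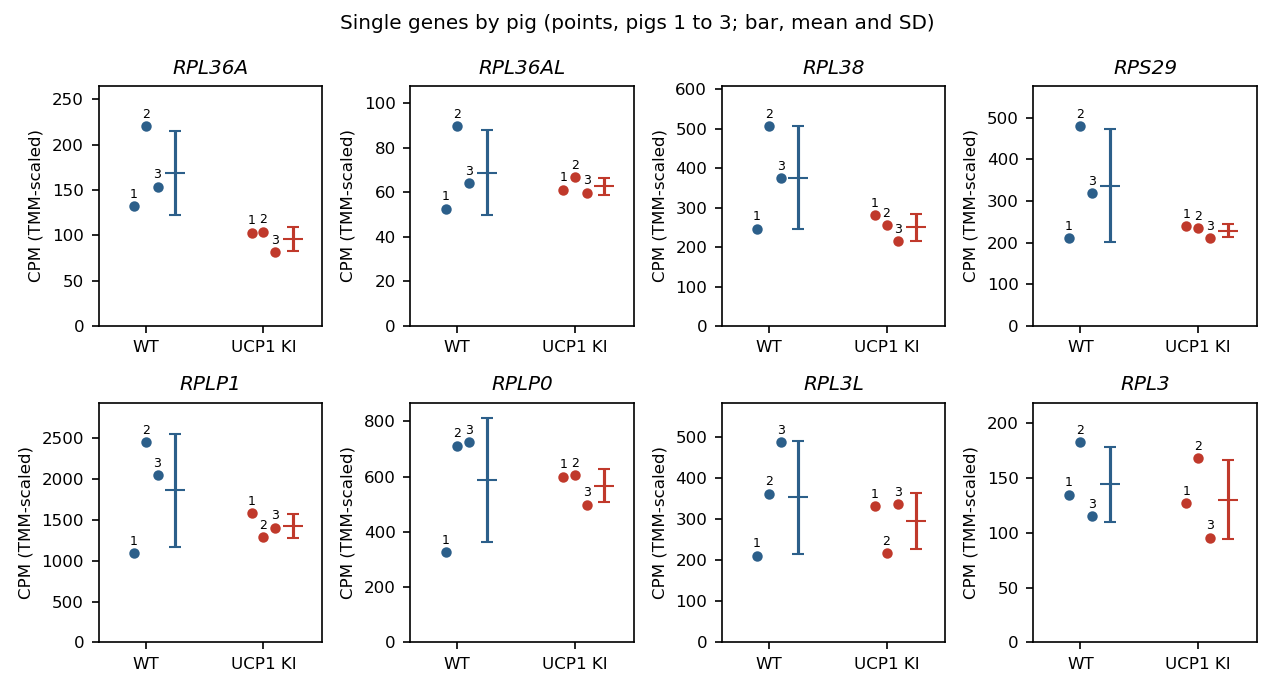
TMM-scaled CPM of 8 ribosomal protein genes in each pig (points, numbered by pig; bars, mean and SD of 3 pigs; every axis starts at 0). The groups do not overlap in RPL36A, and they overlap in the other 7 genes.

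Among small subunit genes, the lowest estimates belonged to RPS15A (-0.58), RPS29 (-0.56), RPS21 (-0.54) and RPS28 (-0.50), none of which was called. RPS29 encodes a small zinc-binding protein of the head of the subunit. It stood at 240, 235 and 210 CPM in UCP1 KI and at 210, 480 and 318 CPM in WT. WT pig 1 thus matched the lowest UCP1 KI pig, and the difference rested on WT pigs 2 and 3. RPS15A, which is part of the body of the subunit, had the same order of pigs, with 293, 266 and 243 CPM in UCP1 KI and 244, 551 and 403 CPM in WT.

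RPS2 and RPSA had smaller estimates. RPS2, a protein of the mRNA entry channel, had 895, 793 and 768 CPM in UCP1 KI and 722, 1328 and 1042 CPM in WT, with a log2 fold change of -0.33 (SE 0.313, edgeR adjusted p = 0.789). Its RefSeq span, 3:39996179-40003110, overlaps those of RNF151 and NDUFB10, and whether the counting used strand is not given in the sources used here. RPSA, which doubles as the laminin receptor of the cell surface, had 338, 399 and 335 CPM in UCP1 KI against 337, 432 and 398 CPM in WT (log2 fold change -0.12). In both of these genes WT pig 2 was the highest of the 6 pigs, and the groups overlapped.

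In the large subunit, RPL38 and RPL23 followed RPL36A at the low end. RPL38, a small protein known for its part in translating Hox mRNAs in the embryo, had 280, 255 and 214 CPM in UCP1 KI and 247, 507 and 374 CPM in WT (log2 fold change -0.59, SE 0.320, edgeR adjusted p = 0.654). RPL23, which can bind MDM2 when ribosome assembly is disturbed, had 352, 317 and 311 CPM in UCP1 KI and 366, 632 and 459 CPM in WT (log2 fold change -0.57, SE 0.285, edgeR adjusted p = 0.636). The groups of RPL23 were apart by the narrow gap between UCP1 KI pig 1 and WT pig 1, and those of RPL38 overlapped.

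RPL37 and RPL14 were the other members without overlap. RPL37, a zinc-binding protein of the large subunit, had 486, 602 and 461 CPM in UCP1 KI and 620, 874 and 618 CPM in WT (log2 fold change -0.45, edgeR adjusted p = 0.697). RPL14 had 762, 795 and 628 CPM in UCP1 KI and 826, 963 and 969 CPM in WT (log2 fold change -0.34, edgeR adjusted p = 0.747). Neither passed the limits of a call.

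At the other end, RPL4 and RPL11 had estimates of 0.04 each, and RPL10 of 0.00. RPL4 lines the exit tunnel of the growing peptide and had 647, 740 and 599 CPM in UCP1 KI against 567, 567 and 792 CPM in WT. RPL11, which with RPL5 carries the signal of disturbed ribosome assembly to MDM2, had 412, 466 and 349 CPM against 351, 457 and 388 CPM. RPL10, a late-joining protein needed for the subunits to meet, had 1436, 1376 and 1138 CPM against 1003, 1306 and 1638 CPM, with the WT pigs on both sides of all 3 UCP1 KI pigs. RPL7A, another member with many counts, had 999, 981 and 755 CPM against 823, 967 and 1074 CPM (log2 fold change -0.07), and its span overlaps that of MED22.

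The stalk genes did not share an order. RPLP1, the member with the most counts, had 1578, 1285 and 1402 CPM in UCP1 KI and 1093, 2445 and 2043 CPM in WT (log2 fold change -0.39, SE 0.369, edgeR adjusted p = 0.790). RPLP0, which anchors the stalk to the ribosome, had 599, 605 and 498 CPM in UCP1 KI and 327, 711 and 723 CPM in WT (log2 fold change -0.05). RPLP2, the partner of RPLP1, had 560, 442 and 410 CPM in UCP1 KI and 517, 728 and 488 CPM in WT (log2 fold change -0.30). WT pig 1 was the lowest of the 6 pigs for RPLP1 and RPLP0 but lay inside the UCP1 KI range for RPLP2, and 0 of these genes were called.

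RPL3L and RPL3 allowed the muscle form to be set beside the general form. RPL3L had 332, 217 and 336 CPM in UCP1 KI and 210, 361 and 486 CPM in WT (log2 fold change -0.26, SE 0.364, edgeR adjusted p = 0.862). RPL3 had 127, 168 and 95.6 CPM in UCP1 KI and 135, 182 and 115 CPM in WT (log2 fold change -0.15). The ratio of RPL3L to RPL3 counts was 2.61, 1.29 and 3.51 in UCP1 KI and 1.56, 1.98 and 4.22 in WT, so it varied more within each group than between them. RPL3L lies at 3:40004907-40016702, next to RPS2, and its span also overlaps that of NDUFB10.

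The other paralogs had few counts. RPL7L1, a nucleolar relative of RPL7 that acts in ribosome assembly, had 43.3, 43.8 and 47.9 CPM in UCP1 KI and 32.1, 41.1 and 44.8 CPM in WT, the highest estimate of all members at 0.19 (SE 0.222, edgeR adjusted p = 0.826). RPL7 itself stood at -0.02. RPL26L1, a close copy of RPL26, ranged from 14.2 to 23.9 CPM over the 6 pigs (log2 fold change 0.14), and RPS27L, a target of p53, from 77.9 to 148 CPM (log2 fold change -0.15). In all 3 of these paralogs the groups overlapped.

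Differences between WT pigs were larger than those between the groups for most members. WT pig 2 exceeded WT pig 1 in all 50 members, from near equality in RPL4 to a ratio of 2.34 in RPS23 (603 against 257 CPM), with a median ratio of 1.53. The highest pig was WT pig 2 in 35 members and WT pig 2 or 3 in 45, and the lowest was UCP1 KI pig 3 in 26 and WT pig 1 in 23. On the log2 scale the median SD was 0.34 in WT and 0.18 in UCP1 KI, the WT SD was the larger in 39 members, and the group difference was smaller than the WT SD in 40. WT pig 2 lay above all UCP1 KI pigs in 41 members, while WT pig 1 lay below all of them in 23.

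How many members were called depended on which WT pigs were compared. Without WT pig 1, 7 members were called lower (RPL36A, RPS29, RPS21, RPS15A, RPL23, RPL38 and RPS28), 31 lay below WT in every UCP1 KI pig and the median log2 fold change was -0.38. Over all genes in that comparison of 3 pigs with 2, 3.69% were called lower and 13.4% lay below WT in every UCP1 KI pig. Without WT pig 2, 0 were called lower, 4 lay below WT in every UCP1 KI pig and the median was -0.08, and over all genes these shares were 2.79% and 11.1%. These comparisons were made with the high or low level of these WT pigs known. The high share of the 20 most abundant genes in WT pig 2 moves with its high ribosomal protein level on the TMM scale, and its part in that level was not tested. As a percent of all counts, WT pig 2 (2.54%) lay inside the range of the UCP1 KI pigs.

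**Figure D4:**
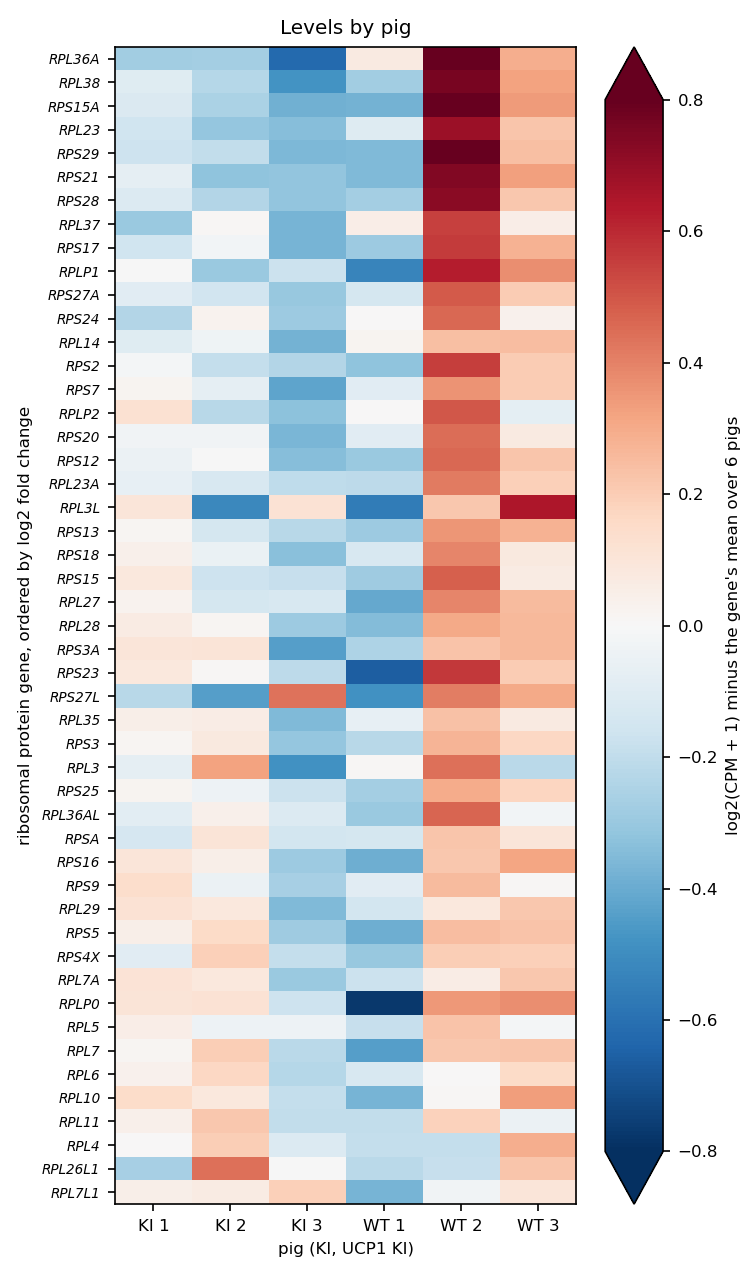
Level of 49 ribosomal protein genes in each pig, as log2(CPM + 1) minus the mean of the gene over the 6 pigs (red, above the mean; blue, below), with genes ordered by log2 fold change. The column of WT pig 2 is red in most genes and those of WT pig 1 and UCP1 KI pig 3 are mostly blue, and these last are the lowest pigs in 49 of 50 members.

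The members kept nearly the same order of abundance in every pig, with Spearman correlations across genes of 0.872 to 0.980 between pairs of pigs. Across the 6 pigs, the correlation of a member with the mean of the other members had a median of 0.868 and was above 0.9 in 22 members, with RPS12 the highest (0.996). It was low for RPL26L1 (0.042), RPL7L1 (0.208) and RPL4 (0.209). These values describe 6 libraries that share their scaling, and genes are not independent replicates. The 5 genes outside the naming rule with the most similar pattern were ENSSSCG00000012427 (Pearson r over 6 pigs 0.993), ENSSSCG00000017509 (0.991), ADORA2B (0.991), GLIPR1 (0.981) and EIF4E (0.978). The first 2 had no symbol, and whether they encode ribosomal proteins was not checked.

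The members lie on 15 chromosomes, 3 of them on X (RPL36A, RPL10 and RPS4X), by RefSeq positions matched on symbol for all 50. RPL10 and RPS4X had log2 fold changes of 0.00 and -0.07, so the estimate for RPL36A was not shared by the other members on X. RPS29 (1:179454923-179456847) lies close to RPL36AL. The spans of 8 members overlap that of another gene.

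To compare each gene with its own family, counts were also expressed as a percent of all ribosomal protein counts of the pig, a scale chosen after the data had been seen. RPL36A made up 0.408, 0.420 and 0.384% in UCP1 KI and 0.620, 0.677 and 0.525% in WT. RPL38 made up 1.11, 1.03 and 1.01% in UCP1 KI and 1.16, 1.56 and 1.28% in WT. Both were below WT in every UCP1 KI pig, as were RPL23, RPS28 and RPS27A.

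On the same scale RPL7 made up 1.76, 2.05 and 1.80% in UCP1 KI and 1.53, 1.57 and 1.76% in WT. RPS25 and RPL7L1 were the other members above WT in every UCP1 KI pig. Over all genes, 2.72% were below and 11.8% above without overlap on this scale, but the members sum to a constant on it and the other genes do not, so nothing is read from the comparison of these shares. With libraries scaled to the ribosomal protein total, log2 fold changes of members ran from -0.59 (RPL36A) to 0.42 (RPL7L1), and 0 were called in edgeR.

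Genes that act with the ribosome were read from the same fit, in which 3.84% of all genes were called higher and 4.34% lower, and all calls rest on the unadjusted p. Of 14 elongation and release factors, EEF1E1, an accessory protein of the aminoacyl-tRNA synthetase complex, was called higher (log2 fold change 0.72, edgeR adjusted p = 0.603) and 0 were called lower, with a median of -0.04. In this list 0 were called higher when UCP1 KI pig 1, 2 or 3 or WT pig 1 or 2 was left out, also 0 in the fit blocked by replicate, and 2 higher and 1 lower without WT pig 3. Its median then ran from -0.09 (without WT pig 2) to 0.15 (without WT pig 3). EEF2, the translocase of elongation, had 1100, 1429 and 1105 CPM in UCP1 KI and 647, 744 and 1232 CPM in WT and was not called (0.47). Of 20 other genes with TOP mRNAs, NAP1L1, a histone chaperone, was called higher (0.75, edgeR adjusted p = 0.608) and 0 were called lower, with a median of 0.10. In this list 0 were called higher without UCP1 KI pig 2, UCP1 KI pig 3 or WT pig 1, and 2 higher and 1 lower without WT pig 3. Its median turned to -0.03 without UCP1 KI pig 2 and to -0.02 without WT pig 1, and was 0.24 without WT pig 3. This list shares TPT1 and elongation factors with the list before it, and it holds RACK1, a protein of the small subunit outside the naming rule, at 438, 453 and 345 CPM in UCP1 KI and 274, 396 and 460 CPM in WT (0.13). CCNI, in the same list, had 106, 148 and 143 CPM in UCP1 KI but 8.55, 118 and 9.08 CPM in WT and was not called. FAU, which encodes the small subunit protein eS30 fused to a ubiquitin-like protein, was listed at only 5.01 to 11.9 CPM.

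Of 61 ribosome biogenesis factors, RRP12, which takes part in the export of the subunits from the nucleus, was called higher (0.70, edgeR adjusted p = 0.604) and 0 were called lower, with a median of 0.09. In this list 0 were called higher without UCP1 KI pig 1, UCP1 KI pig 3, WT pig 1 or WT pig 2, and 5 without WT pig 3, while 1 was called lower without UCP1 KI pig 2, UCP1 KI pig 3 or WT pig 2. The median turned to -0.05 without WT pig 1 and was 0.22 without WT pig 3. With libraries scaled to total count only, 9 were called higher, and 7 with libraries scaled to the ribosomal protein total. The median over all genes was 0.24 and 0.17 on these 2 scales, and the share of all genes called on them was not taken. RRP12 had 28.5, 26.5 and 31.5 CPM in UCP1 KI and 12.2, 16.9 and 24.3 CPM in WT. Of the 61, 7 were above WT in every UCP1 KI pig, against 7.59% of all genes. Another 2 (RRP1B and GAR1) were below WT in every UCP1 KI pig, against 7.69% of all genes. Among the 7, chosen as examples after their values were seen, were SBDS and EMG1, assembly factors of the large and the small subunit, which did not pass the limits (0.61 and 0.64). WDR43 was at 0 counts in WT pig 2 and 3.03 CPM in WT pig 1 but between 11.6 and 16.3 CPM in the other 4 pigs.

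Of 15 genes of RNA polymerase I, which transcribes ribosomal RNA, POLR1B was called higher (1.99, edgeR adjusted p = 0.603), with 11.1 CPM in UCP1 KI pig 2 against 0.876 to 1.70 CPM in the other 5 pigs. In this list 0 were called higher without UCP1 KI pig 2 or without any of the WT pigs in turn. The fit blocked by replicate also called 0 higher. Without WT pig 3, 1 was called lower. The median of the list was 0.18, and 0.07 without WT pig 1. Of 20 genes of TOR signalling to ribosomal protein translation, 0 were called, with a median of 0.02. In this list 1 gene was called lower without UCP1 KI pig 1, 2 or 3 and 2 without WT pig 1, and 1 was called higher without UCP1 KI pig 3 or WT pig 3. DESeq2 called 2 lower and the fit blocked by replicate 1 lower. The median ran from -0.13 without UCP1 KI pig 3 to 0.28 without WT pig 3. EIF4E, the cap-binding protein, had 39.1, 28.2 and 18.3 CPM in UCP1 KI and 15.9, 106 and 90.7 CPM in WT (-1.31, edgeR adjusted p = 0.630), with the same low WT pig 1 as the ribosomal protein genes. DEPTOR, an inhibitor of mTOR, varied from 0.679 to 48.3 CPM without regard to group (-1.64). EIF4EBP1, the inhibitor of EIF4E, had 123, 183 and 84.1 CPM in UCP1 KI and 73.2, 84.0 and 83.3 CPM in WT (0.70, edgeR adjusted p = 0.611). Of 9 RPS6K kinases, left out of the family by the rule, 0 were called, with a median of 0.11.

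The mitochondrial ribosomal proteins, which build the separate ribosome of the mitochondrion, had 5 of 63 genes called higher and 0 called lower, against 3.84% and 4.34% of all genes. Their median was 0.13. Of the 63 genes, 11 were above WT in every UCP1 KI pig, against 7.59% of all genes. In turn, 0 were below WT in every UCP1 KI pig, against 7.69% of all genes. MRPS10 had 28.1, 35.5 and 35.4 CPM in UCP1 KI and 16.8, 19.8 and 22.5 CPM in WT (0.75, edgeR adjusted p = 0.583). MRPL13 had 33.3, 35.4 and 49.2 CPM in UCP1 KI and 24.0, 22.6 and 25.4 CPM in WT (0.71, edgeR adjusted p = 0.583). MRPL19, MRPL4 and MRPS18B were the other genes called. MRPL10 had 12.9 to 14.9 CPM in UCP1 KI and 13.0 CPM in WT pig 3 but 0.662 and 0.511 CPM in WT pigs 1 and 2, and was not called. The number called higher in this list was 1 without WT pig 2, 2 without UCP1 KI pig 3, 3 without UCP1 KI pig 1, UCP1 KI pig 2 or WT pig 1, and 8 without WT pig 3, and 1 was called lower without UCP1 KI pig 1. The median was 0.0053 without WT pig 1, 0.06 without UCP1 KI pig 3 and 0.24 without WT pig 3. The difference between the mitochondrial and the cytosolic family was not tested. With libraries scaled to total count only, the medians of these 6 lists ran from 0.23 to 0.44 and that of all genes was 0.24.

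**Figure D5:**
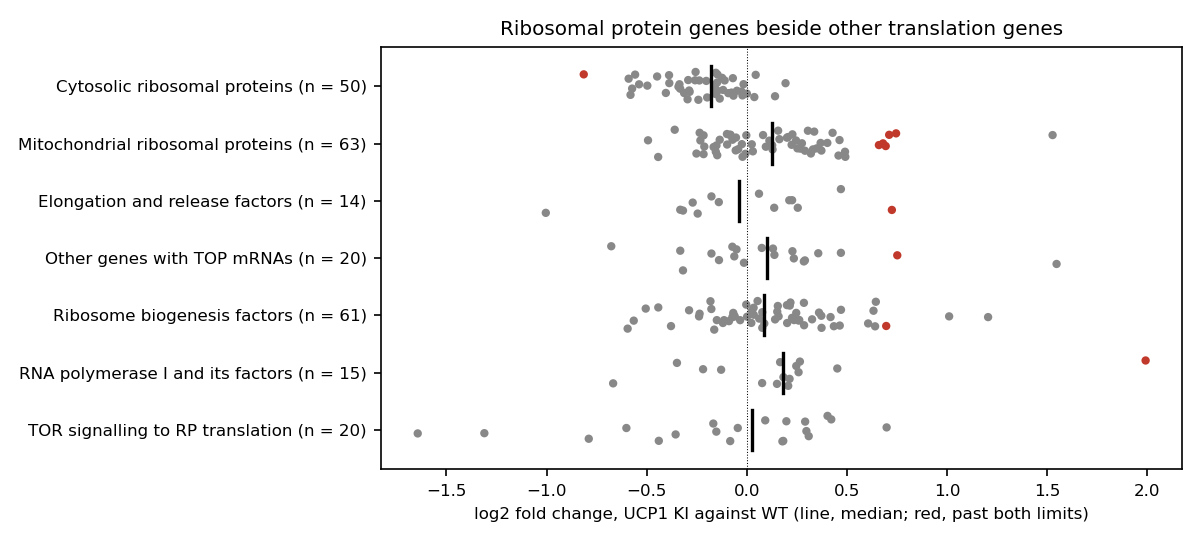
Log2 fold changes of the 50 cytosolic ribosomal protein genes and of 6 lists of genes that act with the ribosome (point, gene; line, median; red, genes past both limits of a call). In this fit of all 6 pigs the cytosolic family has the lowest median, -0.18, and the narrowest range, and red points lie above 0 in 5 of the 6 other lists. Without WT pig 2 its median was -0.08, against -0.09 for elongation and release factors and -0.11 for TOR signalling.

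Markers of the cells that muscle tissue can hold were read from the same fit, in which 3.84% of all genes were called higher and 4.34% lower. Muscle fibre genes gave a summed level of 129677, 64248 and 102970 CPM in UCP1 KI and 94832, 142410 and 160537 CPM in WT, with 0 of 9 called, so transcripts of muscle fibres were abundant in every pig. WT pigs 2 and 3 were the highest in this sum as in that of the ribosomal protein genes, and WT pig 1 the lowest WT pig in both. The UCP1 KI pigs did not keep 1 order: pig 1 was the highest of them in both sums. The lowest was pig 2 in the fibre sum but pig 3 in the ribosomal protein sum. Of 10 fibroblast genes, 4 were called lower in UCP1 KI (COL1A1, COL1A2, COL3A1 and LUM) and only 1 had an estimate above 0, with a median of -0.53. All 10 summed to 483, 298 and 477 CPM in UCP1 KI against 898, 1262 and 786 CPM in WT. Of 13 leukocyte genes, 3 were called higher (CD2, CD3E and ITGAM) and 12 had estimates above 0, with a median of 0.80. Their sum was 191, 263 and 113 CPM against 132, 175 and 145 CPM, of which CD79A, a gene of the B cell receptor with a log2 fold change of 0.02, made up 103, 113 and 76.8 CPM against 73.7, 105 and 110 CPM, while its partner CD79B did not exceed 2.59 CPM. Of 6 adipocyte genes, 1 was called higher (LIPE, a lipase), but 4 had estimates below 0 without a call (ADIPOQ -1.26, FABP4 -1.22, PLIN1 -1.13 and CIDEC -0.80) and the median was -0.96. Their sum was 158, 205 and 193 CPM against 123, 330 and 195 CPM, and WT pig 2 held the most ADIPOQ (15.6 CPM) and FABP4 (253 CPM).

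Of 4 red blood cell genes, 1 was called lower, HBM, a globin gene at 0.453, 0.196 and 0.318 CPM in UCP1 KI and 1.02, 0.730 and 0.901 CPM in WT. All 4 summed to 76.5, 11.6 and 73.5 CPM against 106, 108 and 181 CPM, nearly all of it HBB, the beta chain of haemoglobin, which was not called (74.8, 11.3 and 72.4 CPM against 103, 106 and 177 CPM). Of 9 endothelial genes, 1 was called higher (TEK) and 7 had estimates above 0, with a median of 0.06. Satellite cell genes (6 tested) and slow fibre genes (6 tested) had 0 called, and the slow fibre sum was 12821, 10803 and 7419 CPM in UCP1 KI and 17911, 4338 and 5645 CPM in WT, with WT pig 1 the highest. The part of these cell types in the ribosomal protein levels was not tested.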

How the data were processed

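The authors extracted total RNA from frozen muscle with TRIzol, treated it with DNase I, made mRNA libraries and sequenced paired ends. The submitters' notes name FastQC 0.11.2, Trimmomatic 0.36, HISAT2 2.0, bedtools 2.26.0, StringTie 1.3.3b, DESeq2 1.12.4 and the build Sscrofa11.1. The deposited values are raw counts of reads per Ensembl gene, with 0 columns left unused. The counting program, its handling of strand and of reads shared by copies, and the annotation release are not given in the sources used here. Reads on processed copies of ribosomal protein genes can add to or be lost from these counts.

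Counts were fitted with edgeR 4.0.16 in R 4.3.3 (filterByExpr, TMM, quasi-likelihood F test, two-sided, genotype as the only term), which tested 13402 of 30476 genes. The limits were the study's (p under 0.05, absolute log2 fold change above 0.5), and adjusted p values are Benjamini-Hochberg over all genes tested. DESeq2 1.42.0 was an alternative. Exact permutation tests used log2(CPM + 1) for single genes and the untransformed ratio for RPL36A over RPL36AL. The fit was also run on simulated counts, in which genes varied independently and less between libraries than in the data (dispersion 0.05 against 0.178). That run does not show how the fit performs on these data. With 1 library per pig, the edgeR p values weigh the group difference against variation between pigs, which is estimated with information shared across genes. Symbols came from an Ensembl name table and positions from RefSeq by symbol.

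The members and lists were chosen with earlier results of these data known. Named members were those called, the 5 highest and 5 lowest by fold change, the 5 most abundant, those without overlap, the stalk genes, RPSA and paralog pairs. In the other lists, genes past both limits and at most 3 others were named. Further genes (such as RPS21, RPS23, RPS28, RACK1, FAU, EMG1, SBDS, EIF4EBP1 and overlapping neighbours) were named after their values had been seen. Values of 1 member are not reported here by name. Marker lists covered muscle fibre, slow fibre, fibroblast, endothelial, leukocyte, adipocyte, red blood cell and satellite cell genes. Alternatives varied the scaling, filter, test, block, call rule, members and each pig in turn.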

Additional observations from a re-analysis of the deposited data

How the results depend on the processing

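The number of members called higher was 0 in every alternative run. The number called lower was 1 with DESeq2, median-of-ratios factors, both other filters, no fold change limit and canonical genes only. It was 0 with libraries scaled to total count, with an adjusted p, and with libraries scaled to the ribosomal protein total, and ranged from 0 to 7 when each pig was left out. With total-count scaling the median member log2 fold change was 0.10, against 0.04 when scaled to the ribosomal protein total and -0.38 to -0.08 when each pig was left out. Members without overlap numbered 8 on the ribosomal protein total and 4 to 31 without each pig. The 6 translation lists, with 9 genes called in all, had 22 with total-count scaling, 19 on the ribosomal protein total and 3 to 20 without each pig. The difference in the share of counts was -0.554 percentage points outside the 20 most abundant genes. As a share of all counts it was -0.068 without UCP1 KI pig 2, -0.023 without WT pig 1 and between 0.117 and 0.195 without each of the other pigs in turn. The cause of these shifts was not tested.

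Between UCP1 KI and WT pigs of the same replicate number, correlations of deviations were -0.026, 0.0896 and 0.311 over 7239 genes. Pigs of different numbers were not compared, so these values do not show whether the replicate numbers pair the pigs. With the replicate block the median was -0.16, 1 member was called lower and 10 genes of the translation lists were called.

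The named members that changed sign had estimates between -0.26 (RPL3L) and 0.14 (RPL26L1). RPL10 was -0.0018 with DESeq2, -0.0018 with median-of-ratios factors and -0.0040 with 10 counts in every pig. With total-count scaling, log2 fold changes were 0.19 (RPL7A), 0.25 (RPLP0), 0.16 (RPSA), 0.14 (RPL3), 0.017 (RPL3L), 0.15 (RPS27L), 0.16 (RPL36AL) and 0.27 (RPL7). On the ribosomal protein total they were 0.13 (RPL7A), 0.21 (RPLP0), 0.088 (RPSA), 0.044 (RPL3), 0.0089 (RPL3L), 0.13 (RPS27L), 0.10 (RPL36AL) and 0.21 (RPL7). With the block they were 0.029 (RPLP0) and 0.00017 (RPL7). Leaving out each pig gave -0.16 to 0.19 (RPL10), -0.074 to 0.15 (RPL11), -0.049 to 0.23 (RPL4), -0.10 to 0.31 (RPL26L1), -0.46 to 0.012 (RPS27L), -0.16 to 0.054 (RPL7A), -0.34 to 0.13 (RPLP0), -0.38 to 0.058 (RPL3), -0.21 to 0.086 (RPL7), -0.30 to 0.10 (RPL36AL) and -0.53 to 0.047 (RPL3L).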
